A study of Mus musculus with 38 samples.

Results

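The comparison described here is of LAP2B binding to the genome of epiblast-like cells (EpiLCs) that lack the lamins and the lamin B receptor with that of wild-type EpiLCs. The libraries were chosen by their sample labels alone, as the 3 replicates labelled QKO and the 3 labelled WT with LAP2B as target at the primed stage, which are 6 of the 38 samples that had a column in the tables. LAP2B was mapped by CUT&RUN, in which a nuclease held by an antibody frees the DNA near the antibody's target. WT cells carry no induced deletion, whereas QKO cells lack the products of Lmna, Lmnb1 and Lmnb2, as the triple lamin knockout (TKO) cells do, and the lamin B receptor LBR as well, which alone is missing in LBRKO cells. Both groups were mouse embryonic stem cells taken out of the naive state by 48 h in FGF (20 ng/mL) and activin A (12 ng/mL), with 200000 cells used per replicate. The QKO cells are a single clone made from the TKO line, and WT and TKO are separate lines, so p-values below measure differences between libraries and not between clones or lines. The TKO line has trisomy 8, and a subset of its cells has also lost chromosome Y. A minority of WT cells has an abnormal karyotype too, some with chromosome Y lost and others with trisomy of chromosomes 6 and 8 as well as that loss. QKO cells survived the change to EpiLCs poorly by the study's account, so the libraries describe the cells that remained.

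The nuclear lamina is a meshwork of lamins under the inner nuclear membrane, and chromatin that touches it forms lamina-associated domains, which are poor in active genes, rich in A and T bases and rich in LINE-1 (L1) elements. SINE elements such as B1 and B2 lie mostly in gene-rich chromatin of the nuclear interior. LBR is a membrane protein that tethers heterochromatin, and LAP2B, a product of Tmpo, is another protein of the inner membrane that binds lamins and chromatin. The antibody's target region is shared in part with LAP2alpha, a product of the same gene that is not bound to the membrane. In EpiLCs the study set LAP2B aside as a proxy for the lamina, because in WT EpiLCs its signal also lay outside lamina domains. CUT&RUN reads DNA and not RNA, so neither cell identity nor loss of the knocked-out products can be checked from these libraries by expression.

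Reads recovered over the gene table numbered 28218939 to 36816402 in the QKO libraries and 18713692 to 29685076 in the WT libraries. The median gene held 88 to 114 and 56 to 84 reads. A read is counted in every gene that touches its bin, so these sums are not library sizes. A deposited gene value is a sum over the bins the gene touches, so it grows with length and levels are not compared between genes. Values are used on the deposited, spike-in scaled scale (the spike-in scale) and after division by each library's median gene or median TE family (the relative scale). Changes are called where limma's adjusted p is under 0.05. At the knocked-out genes themselves the relative log2 change in LAP2B was 0.52 for Lmna (limma adjusted p = 0.0794), -0.0013 for Lmnb1 (0.995), 0.77 for Lmnb2 (3.44e-04) and 0.37 for Lbr (0.0275). These values do not test the knockouts. The extent of the lamin deletions is not resolved here, and the study describes indels at a single guide site in Lbr. Its supplement lists a frameshift and an in-frame deletion in Lbr in the QKO clone. By the study's account no LBR was detectable by immunostaining. The call at Lbr was lost after correction for GC content (0.32, limma adjusted p = 0.0567). Lmna was called when libraries were divided by their mean (0.66, limma adjusted p = 0.0349).

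QKO EpiLCs had less LAP2B signal than WT EpiLCs in genes and in transposable elements (TEs) alike. On the spike-in scale the median gene stood at 2.04, 1.84 and 1.85 in QKO replicates 1 to 3 and at 3.81, 2.68 and 3.99 in WT. The median TE family stood at 0.299, 0.272 and 0.283 in QKO and at 0.748, 0.494 and 0.702 in WT. Each QKO library lay below each WT library in both measures, and WT replicate 2 was the lowest of the WT libraries. In the IGG background libraries of WT EpiLCs the median TE family stood at 0.168, 0.393 and 0.151, a range that holds the QKO values. IGG was not mapped in QKO cells, so how much of the QKO signal is background was not tested. The ratio of QKO to WT was 0.554 for the median gene and 0.446 for the median TE family. The level of TEs, the log2 of the mean over families, was -0.58 ± 0.12 (SD, n = 3) in QKO and 0.63 ± 0.33 in WT, a difference of -1.20 with an exact permutation p of 0.1, which is the smallest that 3 libraries against 3 can give. On this scale limma called 1239 of 1241 TE families lower in QKO (99.8%) and none higher, with 1239 at an unadjusted p under 0.05, while edgeR was not run on it. Of 70381 genes tested, 38960 (55.4%) were lower. Fewer bound sites per cell, a change in the share of cells bound and a change in the spike-in share cannot be told apart.

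On the relative scale, which sets aside the total level, 262 TE families (21.1%) rose and 327 (26.3%) fell, and the median change over all families was -0.014. SINE families rose nearly without exception, with 33 of 34 called higher, none lower and a median log2 change of 0.28. Of 198 LINE families 37 rose and 86 fell, with a median of -0.06. Among 630 LTR families 109 rose and 182 fell, and among 303 DNA transposon families 76 rose and 41 fell, with medians of -0.03 and 0.02. These directions are relative to the median family: on the spike-in scale the medians of the SINE, LINE, LTR and DNA transposon classes were -0.76, -1.09, -1.07 and -1.01. Divided instead by the median gene of the same library, 10 families (0.806%) were higher and 1115 (89.8%) lower, and the SINE median was 0.0019. The SINE families thus stood near the level of genes in their change, and the other classes below it. A TE copy's value covers the whole bin or bins it touches, so that of a short SINE copy includes the DNA around it. The copies carry no coordinates, so the base composition of families was not analysed here.

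**Figure D1:**
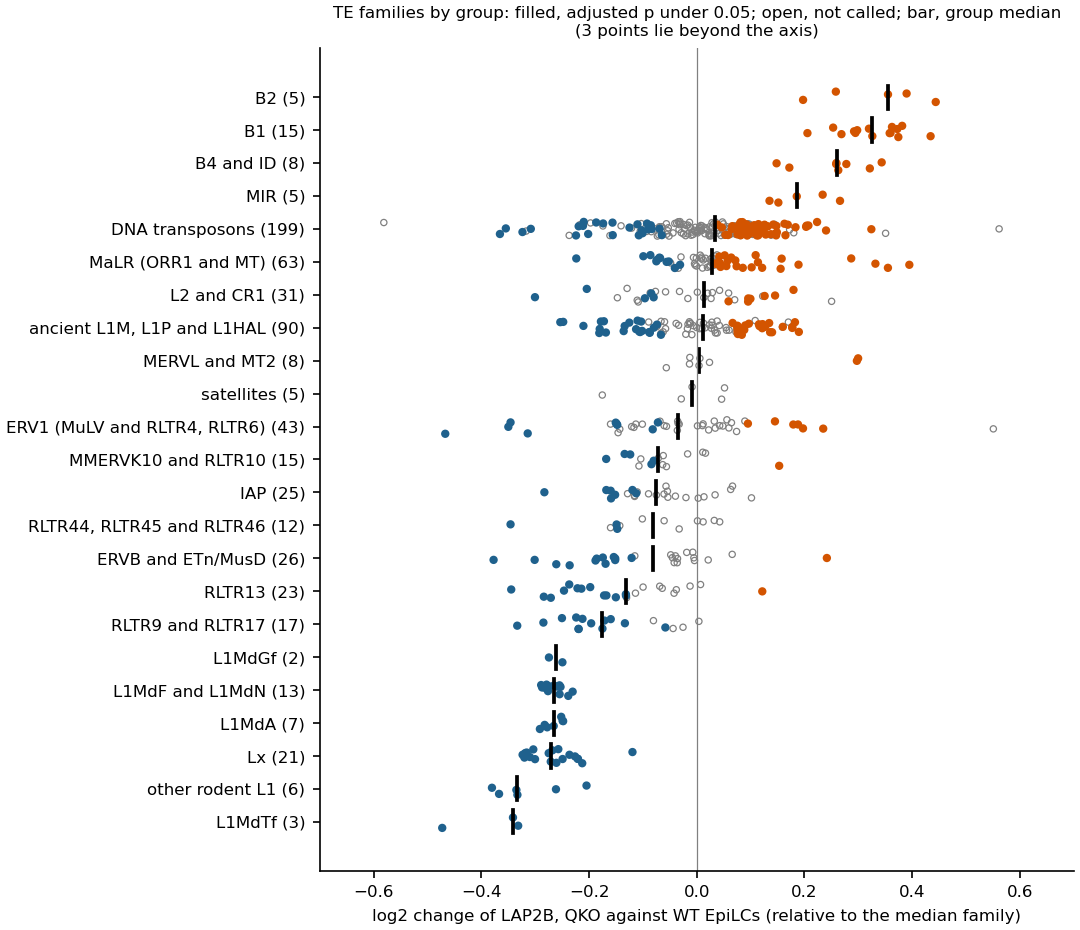
Relative log2 change in LAP2B (QKO against WT EpiLCs) of each TE family, by group of related families; each point is 1 family (filled where called), bars are group medians and 3 points lie beyond the axis. The rodent L1 groups lie below 0 and the B1, B2, B4 and ID, and MIR groups above it, while on the spike-in scale nearly all families are lower in QKO.

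The young L1 groups of the mouse, some of whose copies can still move, lost LAP2B relative to the median family. All 7 L1MdA families, all 3 L1MdTf families and both L1MdGf families were called lower, with median log2 changes of -0.27, -0.34 and -0.26, though by the median over copies L1MdTf_II was not (-0.16, limma adjusted p = 0.0802). With libraries divided by their mean, all 3 L1MdTf families but no L1MdA or L1MdGf family were called lower. The families with the largest changes, here and below, were named from 493 called families of at least 100 copies whose libraries do not overlap between the groups, so the separation of their values is no result. L1MdTf_III stood at 2.67, 2.54 and 2.63 times the median family in QKO and at 3.79, 3.36 and 3.86 times in WT. Its log2 change was -0.47 ± 0.04 (SE; limma adjusted p = 2.41e-06). L1MdTf_I, the L1 family with the highest level of those named, stood at 3.47, 3.28 and 3.31 in QKO and 4.31, 3.86 and 4.68 in WT, a change of -0.34 ± 0.06 (adjusted p = 8.99e-05). L1MdA_II stood at 2.75, 2.64 and 2.68 in QKO and 3.40, 3.10 and 3.44 in WT, a change of -0.29. The IGG background in WT EpiLCs was also high at these 3 families, at 3.08 times the median family for L1MdTf_III, 3.96 times for L1MdTf_I and 2.88 times for L1MdA_II, and lay above the mean QKO level of each (2.61, 3.35 and 2.69). Without the 0.01 of copies highest in IGG the falls were smaller, at -0.25 for L1MdTf_III and -0.19 for L1MdTf_I (both still called), with -0.24 for L1MdA_II. By the median over copies they were -0.25, -0.22 and -0.26.

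Older rodent L1 groups fell by similar amounts. All 13 L1MdF and L1MdN families (median -0.27), all 21 Lx families (-0.27) and all 6 other rodent L1 families (-0.33) were called lower. With libraries divided by their mean, 2 of these 6 and no L1MdF, L1MdN or Lx family were called lower. L1VL1 stood at 1.56, 1.49 and 1.55 in QKO and 2.10, 1.99 and 1.98 in WT, a relative log2 change of -0.38 ± 0.05 (limma adjusted p = 2.65e-06). Lx2B stood at 1.06 in each QKO library and at 1.43, 1.30 and 1.33 in WT (-0.32), and L1_Mus3 at 1.03, 1.05 and 0.996 against 1.42, 1.31 and 1.33 (-0.37). By the median over copies L1_Mus3 was not called (-0.30, adjusted p = 0.0855). L1 families that spread before rodents split from other mammals did not move as a group. Of 90 ancient L1M, L1P and L1HAL families 27 rose and 23 fell, with a median of 0.01, and of 31 L2 and CR1 families 7 rose and 5 fell.

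SINE groups moved the other way on the relative scale and fell on the spike-in scale. All 15 B1 families (median log2 change 0.33), all 5 B2 families (0.36), all 8 B4 and ID families (0.26) and all 5 MIR families (0.19) rose relative to the median family, and their spike-in medians were -0.72, -0.69, -0.78 and -0.86. B2_Mm1a, a young B2 family with 18416 copies, stood at 1.31, 1.33 and 1.29 times the median family in QKO and at 0.896, 0.976 and 0.942 times in WT. Its relative log2 change was 0.44 ± 0.04 (limma adjusted p = 2.41e-06). PB1D9, an early B1 relative with 28801 copies, stood at 1.21, 1.22 and 1.16 in QKO and at 0.818, 0.889 and 0.875 in WT, a relative change of 0.43 ± 0.05. Both families lay below the median family in every WT library and above it in every QKO library. ID_B1, with 108477 copies, stood at 1.17, 1.18 and 1.13 against 0.851, 0.914 and 0.912 (0.34), and MIR1_Amn, of the ancient MIR group, at 1.17, 1.18 and 1.15 against 0.905, 0.953 and 1.00 (0.27). Divided by the median gene instead, B2_Mm1a changed by 0.16 (limma adjusted p = 0.00237) and PB1D9 by 0.15 (0.00257), while ID_B1 stood at 0.06 (0.154) and MIR1_Amn at -0.02 (0.61). By that division 4 B1 families were higher and 1 lower, 2 B2 families were higher, 2 B4 and ID families were lower and 3 MIR families were lower. By the median over copies 3 of 5 MIR families were called higher.

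LTR elements, the remains of endogenous retroviruses, were divided. RLTR9 and RLTR17 (13 of 17 lower, none higher), RLTR13 (13 of 23 lower, 1 higher) and the ERVB and ETn/MusD group (12 of 26 lower, 1 higher) had median changes of -0.18, -0.13 and -0.08. RLTR13A1 stood at 1.39, 1.29 and 1.43 in QKO and at 1.83, 1.70 and 1.76 in WT, a change of -0.34 ± 0.05 (limma adjusted p = 1.25e-05), and RLTR9A3A at 1.30, 1.30 and 1.26 against 1.75, 1.56 and 1.65 (-0.33). ERVB4_3-I_MM, an internal part of a class II retrovirus, stood at 1.46, 1.43 and 1.54 against 2.06, 1.79 and 1.99 (-0.38 ± 0.07, adjusted p = 1.74e-04). With libraries divided by their mean none of these 3 was called (adjusted p = 0.0861, 0.06 and 0.0509). By the median over copies 4 families of RLTR9 and RLTR17, 2 of RLTR13, 3 of the ERVB and ETn/MusD group and none of IAP were called lower, with group medians of -0.15, -0.13, -0.10 and -0.09. IAP elements, the most active class of endogenous retroviruses in the mouse, had 7 of 25 families called lower, a share near the 26.3% of all families, and none higher, with a median of -0.08. IAPEY4_LTR stood at 1.77, 1.72 and 1.65 against 2.17, 1.93 and 2.22 (-0.28). Of 15 MMERVK10 and RLTR10 families 5 fell and 1 rose, and of 43 families grouped by name as ERV1 9 fell and 6 rose. The name patterns of that group take in RLTR43A and RLTR46, annotated as ERVK, and leave out MER67D, annotated as ERV1. Of 12 RLTR44, RLTR45 and RLTR46 families, some of which are counted in the ERV1 group too, 3 fell. The shares lower in the ERV1 and RLTR44 to RLTR46 groups were near or under that of all families.

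MERVL and MT2, which are transcribed in early cleavage embryos, had a median of 0.0049. Of 8 families 2 rose, near the 21.1% of all families, and none fell. The pair that rose were MT2B at 1.14, 1.15 and 1.11 in QKO against 0.872, 0.917 and 0.919 in WT (relative log2 change 0.30 ± 0.03, limma adjusted p = 2.52e-06, and -0.75 on the spike-in scale) and MT2B2, also at 0.30. Of 63 MaLR families, the ORR1 and MT elements, 25 rose and 11 fell. ORR1B1-int, with 65071 copies, stood at 1.14, 1.14 and 1.09 against 0.793, 0.853 and 0.843 (0.39 ± 0.04 on the relative scale, -0.65 on the spike-in scale). MTC-int rose by 0.33 by the mean over its copies but stood at -0.07 by the median over them (limma adjusted p = 0.479) and at -0.05 (0.0451) without the copies highest in IGG.

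Major satellite DNA, which makes up pericentric heterochromatin, was not called on the relative scale and fell on the spike-in scale, by 1.19 (limma adjusted p = 0.00159). GSAT_MM stood at 1459, 1306 and 1336 times the median family in QKO and at 1272, 1399 and 1519 times in WT, with a relative log2 change of -0.03 ± 0.21 (limma adjusted p = 0.919), and the groups overlapped. It took 46.0% to 47.9% of the summed family means in QKO libraries and 44.3% to 48.1% in WT libraries. None of the 5 families of the satellite group was called in either direction on this scale. ZP3AR, annotated as a satellite with 2586 copies, stood at 1.57, 1.58 and 1.45 in QKO and 0.900, 1.01 and 1.09 in WT and rose by 0.57 ± 0.08 (adjusted p = 1.47e-05). CYRA11_Mm, a repeat of the Y chromosome, rose by 0.11 (7.17e-05), with 0.04 and no call by the median over copies (0.674). In spike-in scaled values ZP3AR fell by 0.50 and CYRA11_Mm fell by 0.91. Short arrays with very high signal are also high in IGG background, and copies with the highest IGG were kept in these values.

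The largest relative rise of any family of at least 100 copies was that of FordPrefect, a DNA transposon of the hAT-Tip100 kind with 270 copies. It stood at 5.37, 4.91 and 4.92 times the median family in QKO and at 1.97, 2.00 and 2.35 times in WT, a log2 change of 1.23 ± 0.13 (limma adjusted p = 2.41e-06). The IGG background in WT EpiLCs was 6.68 times the median family at FordPrefect. With the 0.01 of copies highest in IGG left out the change was -0.08 (adjusted p = 0.0283), and by the median over copies it was -0.11 (0.386), so the rise was not present without the copies of high background. Of its copies 14.4% were lower in every QKO library than in every WT library, and 7.78% were higher in every one. Over all TE copies these shares were 12.0% and 12.9%. Its change on the spike-in scale was 0.10 (adjusted p = 0.655). The DNA transposon group as a whole had 64 of 199 families higher and 25 lower, with a median of 0.03, beside 21.1% and 26.3% of all families.

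**Figure D2:**
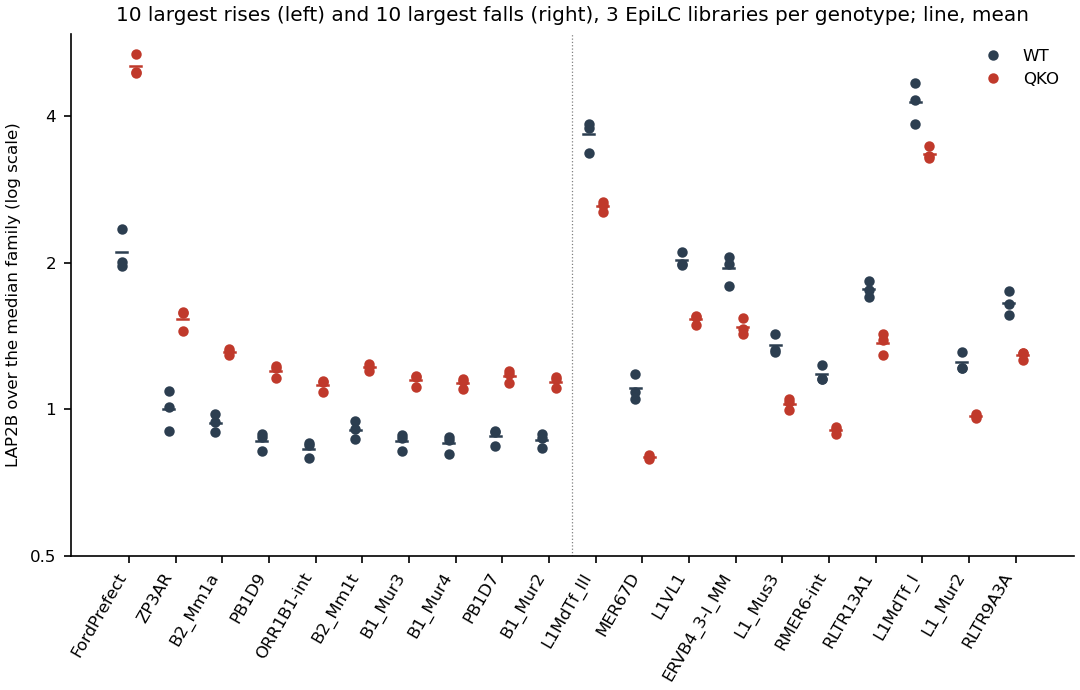
LAP2B level, as a multiple of the median TE family of the same library, in each QKO and WT EpiLC library (points, log axis; lines, means) for the 10 families of at least 100 copies with the largest relative rises and the 10 with the largest falls. Only families whose libraries do not overlap between the groups were eligible, and on the spike-in scale 19 of the 20 are lower in QKO, the exception being FordPrefect.

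The remaining families with the largest relative rises were B2_Mm1t (0.39), B1_Mur3 (0.38), B1_Mur4 (0.37), PB1D7 (0.37) and B1_Mur2 (0.36), all SINEs, and all of these fell on the spike-in scale. Among the 10 largest relative falls were also MER67D (0.804, 0.789 and 0.797 in QKO against 1.18, 1.09 and 1.05 in WT, log2 change -0.43), RMER6-int (-0.35) and L1_Mur2 (-0.34), the latter pair not called with division by the library mean (adjusted p = 0.0908 and 0.0948). Of the 10 that fell, 5 were L1 and 5 were LTR families. These calls depended on the scaling. Divided by the library mean, which the satellites dominate, 41 families were higher and 11 lower. Under that scaling 14 of 15 B1, 4 of 5 B2, 6 of 8 B4 and ID and 2 of 5 MIR families were still called higher. All 3 L1MdTf and 2 of 6 other rodent L1 families were still called lower. No L1MdA, L1MdF, L1MdN, L1MdGf or Lx family was called. With satellites left out of that mean, 336 were higher and 243 lower.

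Single copies followed their families in part. Relative to the median copy of each library, 454303 of 3793386 copies (12.0%) were lower in every QKO library than in every WT library, and 488710 (12.9%) were higher in every one. Of L1MdTf copies 30.8% were lower and 1.78% higher, of L1MdA copies 23.4% and 2.78%, and of Lx copies 20.7% and 4.27%. For B1 copies the shares were 6.46% lower and 21.4% higher, for B2 copies 7.05% and 19.6%, and for MIR copies 9.57% and 15.1%. The remaining copies, the majority in each group, overlapped between QKO and WT. Near-identical young L1 copies share reads, so how their reads were divided among copies is uncertain, which bears less on a family's mean.

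The change followed where WT EpiLCs had LMNB1. LMNB1 was measured in other libraries, so it did not enter the comparison. Among 10 equal classes of families by WT LMNB1, the median relative log2 change went from 0.14 in the class with least LMNB1, where 49.6% of families rose and 2.40% fell, to -0.22 in the class with most, where 2.42% rose and 73.4% fell. Classes by IGG background had no such run, with medians of -0.08 in the lowest class, 0.03 in the seventh and -0.09 in the highest. Without division by the median family every LMNB1 class was lower in QKO, from -0.87 to -1.30. Genes behaved alike, with medians of 0.21 in the class with least LMNB1, 0.31 in the next and -0.61 in the class with most, where 49.7% fell and 1.73% rose.

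**Figure D3:**
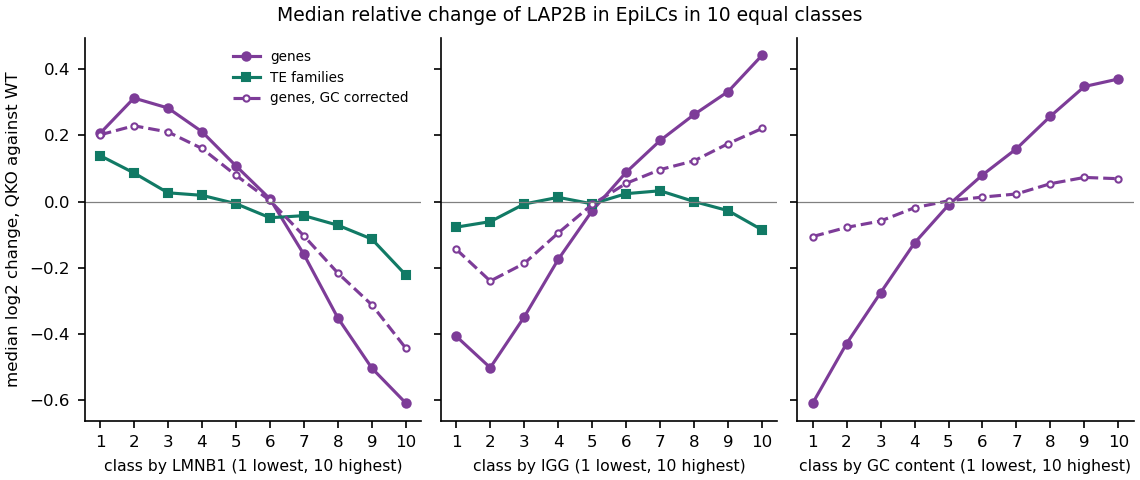
Median relative log2 change in LAP2B (QKO against WT EpiLCs) in 10 equal classes of genes and of TE families, ranked by WT EpiLC LMNB1, by WT EpiLC IGG and, for genes, by GC content; dashed lines are genes after the GC correction. By LMNB1 the medians go from 0.21 in the lowest to -0.61 in the highest class of genes, after a rise to 0.31 in the second class, and from 0.14 to -0.22 in families. By IGG those of genes go from -0.41 to 0.44, after a dip to -0.50 in the second class, and those of families have no run. On the spike-in scale every class is lower in QKO.

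Genes also varied with IGG and base composition. By IGG the class medians went from -0.41 in the lowest class through -0.50 in the next to 0.44 in the highest, and by GC content of the gene span from -0.61 to 0.37. After each library was corrected for its trend on GC content, the class medians by GC ran from -0.11 to 0.07, those by LMNB1 from 0.20 to -0.44 and those by IGG from -0.14 to 0.22. The correction left 9639 genes (13.7%) called higher and 9056 (12.9%) lower of 70312. Lamina domains are rich in A and T bases, so the correction can also remove change that goes with LMNB1. The part of GC content in the relation to LMNB1 was thus not separated for genes, and for families it was not tested.

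The order of the TE families in a QKO library was nearer to that of IGG than in a WT library. Spearman's rho over the 1241 families with LMNB1 was 0.464, 0.446 and 0.483 in the QKO libraries and 0.917, 0.878 and 0.823 in WT. With IGG it was 0.905, 0.895 and 0.895 in QKO and 0.648, 0.735 and 0.770 in WT. The TKO libraries stood between them with LMNB1 (0.556 to 0.594) and near QKO with IGG (0.878 to 0.918), and the LBRKO libraries at 0.558 to 0.574 and 0.746 to 0.796. These correlations describe families that share sequence, depth and base composition, and IGG was not mapped in QKO cells. The contrast between the 311 families with most LMNB1 (58 of them L1) and the 310 with least (32 of them SINEs) was 2.86, 2.70 and 2.76 on the log2 scale in QKO and 2.90, 2.93 and 3.05 in WT, a difference of -0.19 with an exact permutation p of 0.1. All QKO libraries lay below all WT libraries. The mean of the upper set rests largely on 4 satellite families. Taken by medians over families the contrast was 0.296, 0.284 and 0.282 in QKO and 0.551, 0.447 and 0.518 in WT, and the IGG libraries had 0.280 to 0.297 by this measure. The LBRKO libraries had 0.281 to 0.291 by it and the TKO libraries 0.314 to 0.344. Taken by means, the IGG libraries had 3.19, 3.62 and 2.93, above every QKO library, and the LBRKO libraries 2.47 to 2.58, below every QKO library.

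The other mutants were set beside QKO family by family, and both share the WT libraries with it. Relative to WT, the median change of L1MdTf was -0.34 in QKO, -0.15 in TKO and -0.34 in LBRKO, and that of Lx was -0.27, -0.21 and -0.23. The median of B1 was 0.33, 0.21 and 0.22, and that of B2 was 0.36, 0.24 and 0.19. IAP had -0.08, -0.02 and -0.33. Between QKO and TKO, which differ by LBR, limma called 0 of 1241 families (0.00%), with 172 at an unadjusted p under 0.05 and a smallest adjusted p of 0.159. Divided by the median gene instead, 9 families were called. The largest of these differences without a call among the families named above was 0.57 at FordPrefect.

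In the rodent L1 and the SINE groups the median effect in EpiLCs was smaller than that of the same genotype in naive cells. In naive cells 469 families were higher in QKO and 514 lower. The naive medians were -0.60 for L1MdA, -0.57 for L1MdTf, -0.56 for Lx, 0.91 for B1 and 0.96 for B2. A test of the difference between stages called 657 families (52.9%), and in 656 of these the EpiLC effect was shifted against the sign of the naive effect. That count takes in changes of sign, as at RLTR46B (0.08 in naive cells and -0.15 in EpiLCs). For IAP and the ERVB and ETn/MusD group the naive medians were -0.24 and -0.07, beside -0.08 in both at the EpiLC stage. For RLTR9 and RLTR17 the EpiLC median was the larger, at -0.18 beside -0.10 in naive cells. For genes the same test called 32648 (46.4%), of which 32612 were shifted against the naive sign. The naive comparison has its own WT and QKO libraries.

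Genes were divided between rises and falls on the relative scale. Of 70381 genes tested, 11908 (16.9%) rose and 13387 (19.0%) fell, with a median log2 change of -0.0038. Among 20852 protein-coding genes 6862 (32.9%) rose and 4248 (20.4%) fell, and after the GC correction 27.9% were higher and 13.0% lower. Divided by the library mean, the split turned to 16628 higher and 10124 lower. The largest changes of long protein-coding genes, by the naming rule, are shown with the 200 bases upstream of the annotated start (GENCODE M39, GRCm39), to let base composition at a gene that rose be set beside that at a gene that fell. Capitals mark CG dinucleotides, and each sequence is written 5′ to 3′ on the strand of its gene. Prss36 (a serine protease, minus strand, chr7:127545904-127546103) and Tnpo2 (a nuclear import receptor, plus strand, chr8:85761758-85761957) rose, while Klrc2 (a natural killer cell receptor, minus strand, chr6:129637653-129637852) and Pramel33 (minus strand, chr5:93688060-93688259) fell.
Prss36: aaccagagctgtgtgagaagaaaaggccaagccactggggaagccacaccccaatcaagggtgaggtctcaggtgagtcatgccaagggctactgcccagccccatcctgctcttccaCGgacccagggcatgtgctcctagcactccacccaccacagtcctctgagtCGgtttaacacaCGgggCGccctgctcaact
Tnpo2: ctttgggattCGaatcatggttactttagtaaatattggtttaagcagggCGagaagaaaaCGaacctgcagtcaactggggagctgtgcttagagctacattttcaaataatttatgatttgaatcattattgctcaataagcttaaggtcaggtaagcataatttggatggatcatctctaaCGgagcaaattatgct
Klrc2: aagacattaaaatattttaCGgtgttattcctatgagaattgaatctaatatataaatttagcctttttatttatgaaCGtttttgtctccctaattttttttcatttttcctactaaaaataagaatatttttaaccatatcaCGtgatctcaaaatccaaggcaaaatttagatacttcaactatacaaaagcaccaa
Pramel33: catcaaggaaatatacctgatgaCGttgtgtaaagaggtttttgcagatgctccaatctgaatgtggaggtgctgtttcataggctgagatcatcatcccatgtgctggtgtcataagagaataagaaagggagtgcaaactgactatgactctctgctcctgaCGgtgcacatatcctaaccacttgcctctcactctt
These hold 4, 4, 3 and 2 CG dinucleotides, which read the same on both strands. Over 20848 protein-coding genes tested the median was 5, and 90.1% had at least 1. Genes called higher had a median of 8 CG dinucleotides, and 42.5% of them had 10 or more. Genes called lower had a median of 2, and 16.0% had 10 or more. Prss36 and Tnpo2 thus lie below the median of the genes called higher, Klrc2 above that of the genes called lower and Pramel33 at it.

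The naming rule took only genes whose libraries did not overlap between the groups, so the separation of the values below is no result. As multiples of the median gene, Tnpo2 (ENSMUSG00000031691) stood at 12.9, 13.2 and 11.4 in QKO and at 4.08, 4.28 and 4.87 in WT, and Prss36 at 7.63, 8.83 and 6.94 against 2.16, 2.83 and 2.83. On the spike-in scale these genes were among the 83 called higher in QKO (34 without QKO replicate 1, 47 without QKO replicate 2 and 131 without WT replicate 3), with log2 changes of 0.64 (limma adjusted p = 0.0179) and 0.72 (0.0116). Klrc2 stood at 0.310, 0.404 and 0.346 against 2.91, 2.34 and 2.21, and Pramel33 at 1.27, 1.24 and 1.25 against 7.73, 6.94 and 7.01. Per-bin IGG in WT EpiLCs was 1.57 times that of the median gene at Tnpo2 and at Prss36, 0.45 at Klrc2 and 0.48 at Pramel33. The other 6 of the 8 largest rises were Smim40 (relative log2 change 1.43), Cpt1c (1.41), a carnitine palmitoyltransferase of brain, Ppfia3 (1.41), a scaffold protein of synapses, Pycr1 (1.37), an enzyme of proline synthesis, Nek8 (1.37), a kinase of cilia, and Rarg, a retinoic acid receptor. Rarg stood at 11.2, 11.2 and 9.29 in QKO and at 3.45, 4.71 and 4.14 in WT (1.35 ± 0.13, adjusted p = 1.59e-11, and 0.51 on the spike-in scale, adjusted p = 0.0602).

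The falls named by the rule, which took at most 2 genes of a symbol stem, lay in clusters of related genes. Besides Klrc2 and Pramel33 they were Pramel42 (-2.34), Ifi202b (-1.63), an interferon-inducible gene of the p200 family, Klrk1 (-1.59), Klri2 (-1.57), Klrh1 (-1.57) and Klrc1 (-1.56). Ifi202b stood at 3.50, 3.92 and 3.22 in QKO and at 14.4, 10.2 and 9.60 in WT. In TKO the changes against the same WT libraries were -2.11 for Klrc2, -2.13 for Pramel33, -2.04 for Pramel42 and -1.16 for Ifi202b. They were -0.79 for Klrk1, -1.32 for Klri2, -1.15 for Klrh1 and -1.14 for Klrc1. Pramel and Klr genes have near-identical copies, and shared reads make their single values uncertain. The 5 Klr genes lie on chromosome 6, and relative to that chromosome their changes were -2.27 (Klrc2), -1.30 (Klrk1), -1.29 (Klri2), -1.28 (Klrh1) and -1.28 (Klrc1), all called.

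Clusters of receptor genes that serve sensory neurons or immune cells fell as groups on both scales, as did the Pramel genes, a family expanded in rodents. Of 27 killer cell lectin-like receptor genes tested 25 fell and 1 rose, with a median of -1.29. The Klr genes named above lie on chromosome 6, which fell as a whole (-0.33), and the list values here are not relative to the chromosome. Of 55 Pramel genes 50 fell (median -0.89), of 111 vomeronasal type 2 receptors 103 fell (-0.85), of 148 vomeronasal type 1 receptors 87 fell (-0.65) and of 34 bitter taste receptors 19 fell (-0.77), with none higher. Of 1105 olfactory receptors 646 fell and 7 rose (-0.69). Vmn2r21 stood at 2.23, 2.67 and 2.74 in QKO and at 7.75, 7.07 and 7.44 in WT (-1.51 ± 0.16, limma adjusted p = 1.85e-10). Vmn1r8 changed by -1.42, Tas2r105 by -1.63 and Or5k3 by -1.60. These families are AT-rich, and after the GC correction the medians were -0.76 (killer cell receptors), -0.76 (Pramel), -0.37 (Vmn2r), -0.29 (Vmn1r), -0.36 (taste) and -0.23 (olfactory), with 23, 37, 56, 30, 7 and 150 genes called lower. For olfactory receptors that was 13.6%, beside 12.9% of all genes, and 20 of them were called higher, so their share called lower was near the background once GC content was corrected. Copies within each family are similar in sequence, and their single values are uncertain. Median IGG per bin in WT EpiLCs was 0.65 to 0.81 times that of the median gene in these lists.

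Other tissue-specific clusters were also lower in part, beside 19.0% of all genes called lower and 12.9% after the GC correction. Of 51 serpin A and B genes, protease inhibitors, 27 fell and none rose (median -0.52), with 22 lower after the correction (-0.45). Of 70 defensins, antimicrobial peptides, 33 fell and 1 rose (-0.54), with 17 lower after it (-0.34). UDP-glucuronosyltransferases, which conjugate hormones and drugs, had 10 of 17 lower (-0.63), but after the GC correction 4 were higher and 2 lower (-0.10). Of 72 Cyp2, Cyp3 and Cyp4 enzymes 35 fell and 9 rose (-0.41), with 20 lower and 7 higher after the correction (-0.15). Of 39 zinc finger genes named Zfp900 to Zfp999 14 fell and 4 rose (-0.29), but after the correction 9 were higher and 6 lower, with a median of -0.0071. Of 95 keratin-associated protein genes 17 fell and 1 rose (-0.18), a share of 17.9% that is near the background before the correction. After it 18 were lower (18.9%) and none higher, with a median of -0.40. Cyp2j9 stood at 2.17, 2.69 and 2.46 in QKO and at 7.41, 5.86 and 7.16 in WT (-1.44). Serpinb3c changed by -1.32, Defa20 by -1.98, Zfp994 by -1.20, Ugt2b38 by -1.08 and Krtap19-2 by -1.41.

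Very long neuronal genes, which encode adhesion molecules and receptors of synapses and lie in lamina domains in many cell types, fell almost throughout. Of 57 tested 56 fell and none rose, with a median of -0.76, and 48 were still called lower after the GC correction (-0.36). Over all genes these shares were 19.0% and 12.9%, and of the longest of 10 equal classes of genes by length 46.1% were called lower. Cntn3, a contactin, stood at 34.5, 36.9 and 40.3 in QKO and at 98.7, 85.8 and 80.1 in WT (-1.24 ± 0.11, limma adjusted p = 1.46e-12). Ctnna2, a catenin of neurons, stood at 92.3, 93.7 and 99.7 against 233, 206 and 194 (-1.15), Grm7, a glutamate receptor, at 75.9, 74.8 and 82.6 against 203, 170 and 165 (-1.20), and Cntn6 changed by -1.23. No QKO library reached a WT library in any of the 4, which were named for the size of their change. All 4 lie on chromosome 6, whose genes fell as a whole (-0.33) and of which some WT cells have an extra copy. Relative to that chromosome the changes were -0.92 for Cntn3, -0.83 for Ctnna2, -0.88 for Grm7 and -0.92 for Cntn6, all still called. In naive cells the median of the list was -1.87.

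Genes of the primed epiblast, the state that EpiLCs model, gained LAP2B relative to the median gene. Of 25 tested 14 rose and 2 fell, with a median of 0.50, and 10 were higher and none lower after the GC correction, beside 32.9% and 27.9% of protein-coding genes called higher. Etv4, an ETS factor downstream of FGF, stood at 5.86, 6.15 and 6.07 in QKO and at 2.72, 2.39 and 3.27 in WT (1.09 ± 0.15, limma adjusted p = 6.82e-08). Fgf15 rose by 0.93, Tead2 by 0.89 and Lefty2, a Nodal antagonist, by 0.89. The list's median IGG background per bin in WT EpiLCs was 1.35 times that of the median gene. At Etv4, Fgf15, Tead2 and Lefty2 it was 1.37, 1.35, 1.52 and 1.61 times. How much of these relative rises is background was not tested. On the spike-in scale the median of the list was -0.32, and the 4 named genes stood between 0.05 and 0.26 with no call. Of 24 naive pluripotency factors 5 rose and 4 fell with a median of -0.04, which turned to 0.09 when libraries were divided by their mean. After the GC correction 2 were higher and 2 lower, with a median of -0.11. Fgf4 rose by 0.68. Klf2 rose by 0.59 (adjusted p = 0.0343), but was not called after the GC correction (0.31, adjusted p = 0.198) or relative to its chromosome (0.46, 0.145), while Tet2, which oxidises methylated DNA, fell by 0.55 and Spp1 fell by 0.62 on the log2 scale, the call at Spp1 being lost after the GC correction (-0.20, adjusted p = 0.542) and with division by the library mean (0.0529).

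Regulators of later lineages had medians nearer 0. Their shares called higher were 6.67% to 27.6% and 47.4% for Wnt ligands, beside 32.9% of protein-coding genes. After the GC correction, with 27.9% of protein-coding genes called higher, 3 mesoderm genes, 3 Hox genes, 4 Wnt ligands (21.1%) and 1 neural gene were called higher. Called lower after it were 1 mesoderm gene, 1 Hox gene, 2 Wnt ligands and 5 neural genes (16.7%), beside 13.0% of protein-coding genes. Of 29 mesoderm and gastrulation genes 8 rose and none fell (median 0.12, and -0.11 after the GC correction), among them Tbx6 (1.29) and Meox1 (0.80). Of 39 Hox genes 6 rose and none fell (0.22, and -0.05 after the correction), Hoxb13 the most (0.90). Of 19 Wnt ligands 9 rose and 2 fell (0.34, and 0.05 after it), with Wnt10b at 0.99 and Wnt2 at -0.75 (-0.43 relative to its chromosome 6). Of 30 neural and ectoderm genes 2 rose and 3 fell (0.05, and -0.16 after it), with Nes, an intermediate filament of neural progenitors, at 1.39 and Dlx5 at -0.65, not called relative to its chromosome 6 (-0.36, adjusted p = 0.149). Of 30 endoderm genes 4 rose and 4 fell (0.17), which became 2 and 5 after the correction (0.03) and 13 and 4 with division by the library mean, with Afp, a fetal serum protein, at -0.77 and Srgn at 0.55. Of 38 germline genes 9 rose and 4 fell (0.08), which became 13 and 1 both after the correction (0.22) and with the library mean, with Tex19.1 at 1.00 and Tex14 at 0.88. Each of these medians was negative on the spike-in scale, between -0.50 and -0.76.

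Genes for the nuclear envelope and for heterochromatin had relative gains. Of 32 nuclear envelope genes and LBR partners 18 rose and 1 fell (median 0.43, and 0.41 with the same counts after the GC correction), beside 32.9% of protein-coding genes called higher and 27.9% after it. Emd, which encodes the inner membrane protein emerin, stood at 2.17, 1.68 and 1.79 in QKO and at 0.573, 0.547 and 0.443 in WT (1.67 ± 0.22, limma adjusted p = 3.39e-08), and it also rose by 0.90 on the spike-in scale (0.00979). Cbx5, which encodes the LBR-binding protein HP1 alpha, stood at 15.8, 14.6 and 13.7 against 6.76, 8.17 and 6.83 (1.01 ± 0.11), with 0.17 on the spike-in scale (adjusted p = 0.537). The libraries of the groups do not overlap at either gene, both being named for the size of their change. Per-bin IGG in WT EpiLCs was 0.64 times that of the median gene at Emd and 1.11 times at Cbx5. Ankle1, a LEM-domain nuclease, rose by 0.98 and Syne4, a nesprin of the outer membrane, by 0.88 (not called after the GC correction, adjusted p = 0.0507). Tmpo itself, the source of LAP2B, stood at 7.03, 6.28 and 6.68 in QKO and at 5.53, 5.86 and 4.96 in WT (0.29, adjusted p = 0.0478).

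Of 25 genes for H3K9 methylation 13 rose and 1 fell (median 0.34), and 16 were higher and none lower after the GC correction, against the same shares of protein-coding genes. The demethylases Kdm4b and Kdm3b rose by 0.91 and 0.89 and the methyltransferase Setdb1 by 0.72 on the relative scale. Of 29 genes that silence retrotransposons 16 rose and 2 fell (0.33), with the DNA methylation factors Dnmt3l and Uhrf1 both at 0.86, the deaminase Apobec3 at 0.79 and the germline gene Asz1 at -0.81. Relative to its chromosome 6, Asz1 was at -0.50. Of 27 genes for innate sensing of nucleic acids 9 (33.3%) rose and 5 fell (0.23), a share near that of all protein-coding genes. Irf3, a transcription factor of the interferon response, stood at 3.14, 3.47 and 2.67 against 0.680, 1.05 and 1.16 (1.61 ± 0.21, limma adjusted p = 3.15e-08), Bst2 rose by 1.28 and Stat2 by 0.91. Ifnb1, which encodes interferon beta, stood at 0.159, 0.110 and 0.307 against 0.547, 0.528 and 0.557 (-1.20). Per-bin IGG in WT EpiLCs was 1.54, 2.42, 1.38 and 1.14 times that of the median gene at Irf3, Bst2, Stat2 and Ifnb1. The spike-in medians of these 3 lists were -0.49, -0.51 and -0.51.

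Histone and housekeeping genes, which most dividing cells express, had 57.1% and 62.1% of their members called higher beside 32.9% of protein-coding genes, while the share of ribosomal protein genes was near that background. Of 28 replication-dependent histone genes tested 16 rose and none fell (median 0.69), of 29 housekeeping genes 18 rose and none fell (0.49), and of 81 ribosomal protein genes 26 (32.1%) rose and 1 fell (0.39). After the GC correction 11 histone (39.3%), 11 housekeeping (37.9%) and 14 ribosomal protein genes (17.3%) were called higher, beside 27.9% of protein-coding genes, with medians of 0.53, 0.38 and 0.27. The medians on the spike-in scale were -0.04, -0.32 and -0.38. Median IGG per bin in WT EpiLCs was 1.98, 1.30 and 1.43 times that of the median gene. H4c2 rose by 1.61, Aldoa by 1.04 and Rps28 by 1.05 relative to the median gene. Histone genes have near-identical copies in clusters and their single values are uncertain. Clustered protocadherins were split, with 22 of 59 higher and 15 lower (median 0.01), and after the GC correction 23 were higher and 1 lower. Pcdhgc5 rose by 1.04, but the genes of that cluster overlap and share reads.

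**Figure D4:**
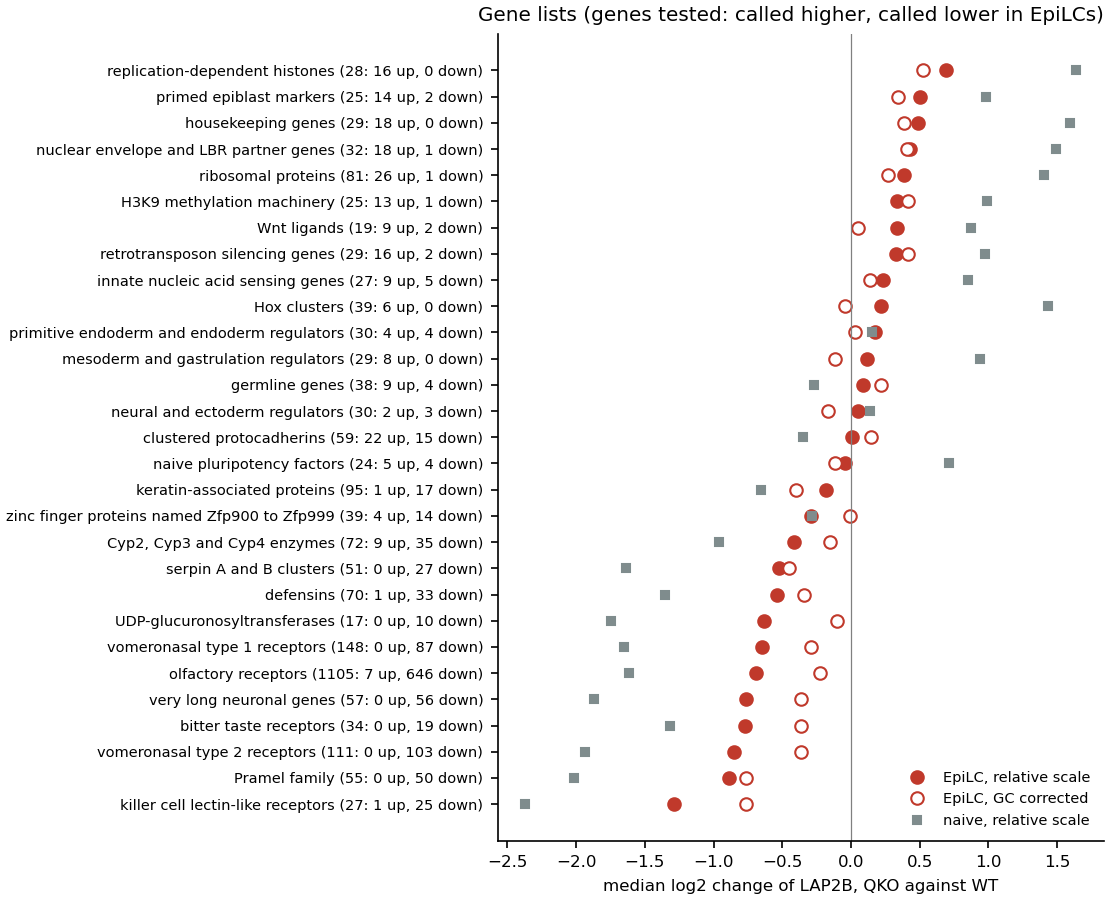
Median log2 change in LAP2B (QKO against WT) of the genes in each list, relative to the median gene of a library; filled circles are EpiLCs, open circles EpiLCs after the GC correction and squares naive cells, with the number of genes tested and called in EpiLCs beside each name. Histone, primed epiblast, housekeeping and nuclear envelope genes have the highest medians (0.43 to 0.69) and killer cell receptors the lowest (-1.29); on the spike-in scale the EpiLC median of every list is below 0.

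Whole chromosomes differed by small amounts. Of 21 chromosomes 16 (76.2%) were called on the mean over their genes, 6 higher and 10 lower. Chromosome 6 stood at 1.1, 1.12 and 1.13 in QKO and at 1.43, 1.41 and 1.37 in WT, the largest change of any (-0.33 ± 0.02, limma adjusted p = 6.89e-11). In TKO its change was -0.22 and in LBRKO 0.30. Chromosomes 11 and 19, which are rich in genes, rose by 0.23 and 0.19. Chromosome X fell by 0.17, chromosome 8 rose by 0.04 (adjusted p = 0.0238) and chromosome Y was at -0.06 (0.242). Divided by the library mean, 10 chromosomes were higher and only chromosome 6 was lower (-0.21). The abnormal WT cells include some with trisomy of chromosomes 6 and 8, the TKO line that QKO came from has trisomy 8, and chromosome Y is lost in a subset of both. A change in LAP2B and a change in copy number of a chromosome cannot be told apart, because no background library was made from QKO cells.

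**Figure D5:**
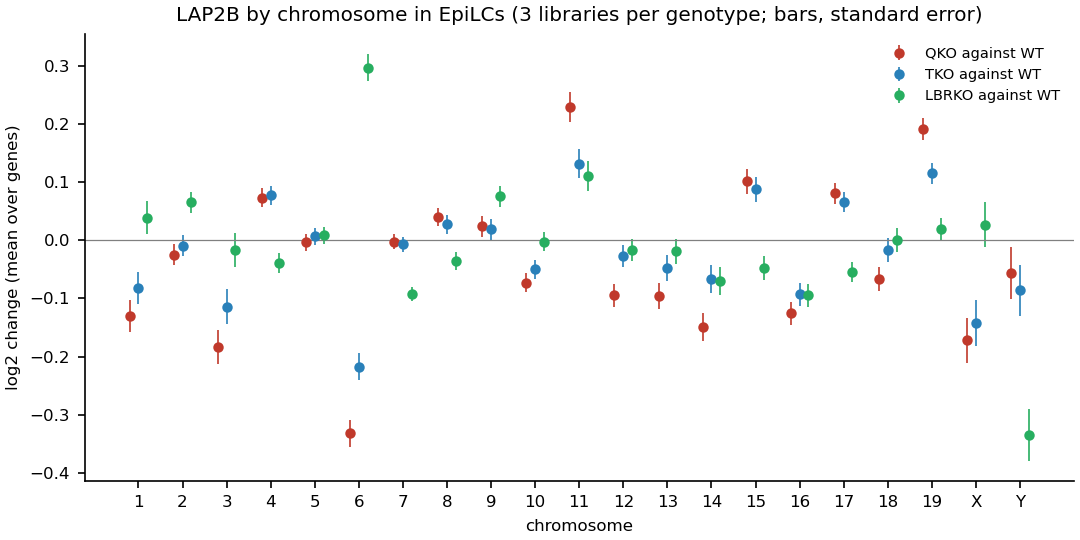
Relative log2 change in the mean LAP2B over the genes of each chromosome in QKO, TKO and LBRKO EpiLCs against WT, which the 3 comparisons share, with bars for the SE. Chromosome 6 has the lowest QKO value (-0.33) and a positive LBRKO value (0.30), and chromosomes 11 and 19 have the highest QKO values (0.23 and 0.19); with QKO and WT libraries divided by their mean chromosome 6 alone is called lower.

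The change was spread over most windows of 5 Mb. Of 551 windows with at least 5 genes, 442 (80.2%) were called, 110 higher and 332 lower. The median change over windows was -0.22. Windows were scaled to the median gene of a library and not to the median window, so the split into higher and lower rests on that scale. A window's value is its summed gene signal per bin, so long genes weigh most. In the longest of 10 equal classes of genes by length the median change was -0.20. The window with the largest change lay at the end of chromosome Y (90000001 to 95000000, GRCm39), at 5.62, 5.38 and 4.86 in QKO and 0.709, 0.599 and 0.805 in WT, a relative rise of 2.49 ± 0.09 (limma adjusted p = 5.25e-16), and 1.56 in TKO. In it 8 of 13 genes were called higher and 1 lower, beside 16.9% and 19.0% of all genes. The window was picked for its change in these same genes, so the counts are no separate result. Erdr1y (ENSMUSG00000096768, a long non-coding gene at 90796007 to 90833677) stood at 63.0, 58.6 and 54.5 in QKO and at 7.0, 5.40 and 8.16 in WT (3.10 ± 0.12), and at 27.8 to 29.8 in TKO. It also rose on the spike-in scale, by 2.25. Genes at this end of chromosome Y overlap and have copies elsewhere, so their reads may come from more than 1 place. Erdr1y was chosen after its values were seen.

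The other 4 of the 5 largest window changes were falls. These windows were also picked for their change, so the counts of genes in them are no separate result. Of all genes 19.0% were called lower and 16.9% higher. On chromosome 6 (75000001 to 80000000) 39 of 53 genes fell and none rose, with a log2 change of -0.98 ± 0.09 in the window's signal per bin. That window holds Ctnna2 and the synaptic genes Lrrtm4 and Lrrtm1. On chromosome 3 (1 to 5000000) 12 of 20 genes fell (-0.86), and on chromosome 16 (75000001 to 80000000) 73 of 106 genes fell (-0.84). On chromosome 10 (130000001 to 135000000), with Vmn2r84 to Vmn2r87, all 11 genes fell (-0.84). The median LMNB1 of these 4 windows in WT was 1.32 to 3.03 times that of the median gene per bin. In TKO the same windows had changes of -0.63, -0.49, -0.52 and -0.72 against the same WT libraries.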

How the data were processed

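CUT&RUN libraries of mouse cells were sequenced by the authors, who aligned read pairs to GRCm39 with Bowtie2 2.3.5.1 (SAMtools 1.10), removed duplicates and computed spike-in scaled signal in bins with deepTools. The deposited signal is 1 value per gene (78202) or TE copy (3793386 in 1241 families) and library, read here as a sum over 1 kb bins; for TEs the methods name wider bins. Blacklisted regions are absent from gene values but not from TE values. Every gene value and at least 99.9997% of TE values were whole multiples of a step (tolerance 0.05 of a step), so whole reads were recovered. Summed over TE copies, recovered reads were 55341503 to 100313781 per QKO or WT EpiLC library, more than the reads the study gives per LAP2 library. A read is counted in every gene or copy that touches its bin, so such sums are not library sizes. edgeR took these repeated counts as they are. Intervals are not given because replicates differ by more than counting error.

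Libraries were divided by their median gene or family (relative scale) or left as deposited. A pseudocount of 0.1 of the median was added, the lowest 0.1 of genes by mean left out, and log2 values were fitted with limma 3.58.1 (trend, two-sided) in R 4.3.3 over 24 LAP2B libraries in 8 groups, with Benjamini-Hochberg adjustment over all features. A TE family's value is the mean over its copies. Chromosomes were tested on the mean log2 value over their genes. Windows of 5 Mb were tested on summed gene values over summed bins, in which long genes weigh most. Gene spans, GC content and promoters came from GENCODE M39. Tables were made with Python 3.11.15. Whether same-numbered replicates pair was checked by correlating their deviations from group means (-0.027, 0.0029 and -0.061), and they were not taken as pairs. Alternatives were edgeR 4.0.16 on recovered reads (TMM and RLE), other pseudocounts (0.02 and 0.5 of the median), scalings, filters, GC correction, a replicate block and leaving out each library.

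Named items were taken by rule. The 8 largest rises and falls came from called protein-coding genes of at least 10 kb without overlap (6675 candidates). Their call held relative to the chromosome, with at most 2 per symbol stem, the letters before the first digit. The 10 largest rises and falls came from called families of at least 100 copies without overlap (493 candidates). To these were added up to 4 per gene list, 3 per TE group, the knocked-out genes, Tmpo, 3 chromosomes and 5 windows. The members and lists were chosen with earlier results of these data known. On simulated data for this comparison, limma recovered 54% of genes changed to 0.5 and 72% of genes changed to 2 times their level (70368 genes), 8% at 0.67 and 4% at 1.5, and all changed families from 0.67 to 1.5 times (1116 families). Each change was given to 50 features, drawn only from those with more reads, with a single spread for all. Far fewer features were thus changed than were called in the data, and genes of few reads were not covered. Of unchanged features 1.2% of families and 0.0029% of genes were called.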

Additional observations from a re-analysis of the deposited data

Results flagged for a closer look

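At all but 1 of the 16 genes and 20 families with the largest changes by the naming rule the effect of QKO against WT differed between EpiLCs and naive cells by the interaction test of limma, at an adjusted p under 0.05 over all features. Values are the EpiLC log2 change minus the naive log2 change on the relative scale, 3 libraries a group. For genes that rose in EpiLCs the difference was -1.29 at Prss36, -1.57 at Tnpo2, -1.74 at Smim40, -1.99 at Cpt1c, -1.71 at Ppfia3, -1.76 at Pycr1, -1.44 at Nek8 and -1.34 at Rarg. For genes that fell it was 1.19 at Pramel33, 0.94 at Pramel42, 1.33 at Ifi202b, 1.27 at Klrk1, 1.18 at Klri2, 1.14 at Klrh1 and 1.19 at Klrc1. The exception was Klrc2, at 0.68 with an adjusted p of 0.0705.

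For TE families that rose the difference was -1.26 at FordPrefect, -0.97 at ZP3AR, -0.75 at B2_Mm1a, -0.74 at PB1D9, -0.70 at ORR1B1-int, -0.67 at B2_Mm1t, -0.68 at B1_Mur3, -0.64 at B1_Mur4, -0.63 at PB1D7 and -0.64 at B1_Mur2. For families that fell it was 0.27 at L1MdTf_III, 0.46 at MER67D, 0.40 at L1VL1, 0.39 at ERVB4_3-I_MM, 0.36 at L1_Mus3, 0.32 at RMER6-int, 0.20 at RLTR13A1, 0.23 at L1MdTf_I, 0.30 at L1_Mur2 and 0.18 at RLTR9A3A. In each of these 35 the EpiLC effect had the sign of the naive effect and was smaller. All 20 families kept the sign of this difference when libraries were divided by their median gene. Whether fewer surviving cells, depth or stage sets the size of the effect was not tested.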

How the results depend on the processing

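Of the count results, those of TE families moved most. Their 589 relative calls became 52 with libraries divided by their mean, 149 by the median over copies and 1125 over the median gene, and the 657 differences between stages became 376, 139 and 1139 under the same choices, the last chosen after seeing the data. Over the median gene 9 families differed between QKO and TKO, also chosen after seeing the data. Genes of at least 10 kb gave 15700 calls of 26570 where all lengths gave 25295, by construction from fewer genes, and windows of 2 Mb gave 1073 of 1341. The cause of the other shifts was not tested.

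Leaving out 1 library at a time gave 18423 to 23405 calls for genes, 30124 to 44047 on the spike-in scale, 471 to 572 for families, 1234 to 1239 on the spike-in scale, 15 to 17 for chromosomes, 407 to 439 for windows and 0 for QKO against TKO. It gave -1.39 to -1.1 for the TE level and -0.23 to -0.14 for the contrast by LMNB1. With a replicate block the counts were 25206 and 37771 for genes, 586 and 1238 for families, 16 for chromosomes, 32615 and 660 for differences between stages and 0 for QKO against TKO; with GC correction it was 18746, beside 18695 without the block. edgeR called 25598 (TMM) and 25657 (RLE) genes and 602 families.

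Of the values of single genes and families under each alternative, 3278 kept direction and call, 165 lost the call, 3 gained it and 22 changed sign. Lmnb1 turned to 0.017 (RLE), 0.016 (TMM), 0.14 (library mean), 0.031 (no filter) and 0.031 (relative to its chromosome), and without single libraries to 0.010, 0.039, 0.045 and 0.079, with -0.13 as the lowest of these. FordPrefect turned to -0.075 without copies of highest IGG and -0.11 by the median over copies, and MTC-int to -0.049 and -0.066. MMSAT4 turned to -0.0021 by the median over copies. Over the median gene, ID4 stood at -0.0046, L2b at -0.10, MIR1_Amn at -0.019, MIR3 at -0.050, MIRc at -0.10, MMSAT4 at -0.24, MurSAT1 at -0.18 and RLTR10E at -0.14. Depth limits short genes most, since the median gene held 56 to 114 reads.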
